A study of Mus musculus with 6 samples.

Results

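The integrin and basement membrane genes of sorted nephron progenitors were examined, a set of 41 genes listed by name and matched by Entrez Gene identifier. All 41 were found among the 27179 entries of the deposited table. They comprise 9 laminin chains, 6 type IV collagen chains, 5 nidogen and proteoglycan genes, 11 integrin alpha chains, 5 integrin beta chains and 5 genes of nephronectin and the Fraser complex. RNA came from E16.5 mouse kidneys, from cells sorted by green fluorescence that the Six2 locus drives. Mutant cells were Six2TGC;miR-17~92fl/fl, so that Cre recombinase made under control of Six2 can excise the miR-17~92 cluster of microRNAs where loxP sites flank it. Control cells were Six2TGC, and so carried the same Cre and fluorescent transgene; their labels name no floxed copies. There were 3 libraries per genotype, with cells of 4 embryos pooled in each and 12 embryos in all per genotype. The labels give no strain, so removal of the cluster and any genetic background that came with the floxed copies cannot be told apart.

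Basement membranes are thin sheets of matrix laid down under epithelia and around mesenchyme that is turning epithelial. Laminin trimers of an alpha, a beta and a gamma chain and networks of type IV collagen form their core, and nidogens and heparan sulfate proteoglycans such as perlecan and agrin link them. Integrins, receptors made of an alpha and a beta chain, hold cells to this matrix. In the developing kidney, integrin alpha8 beta1 on the metanephric mesenchyme binds nephronectin, a matrix protein made by the ureteric bud, and the Fraser complex proteins Fras1, Frem1 and Frem2, with the adaptor Grip1, are needed for that encounter. Nephron progenitors around the ureteric tips become renal vesicles, which build their own basement membrane.

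The genotype was checked at the targeted locus first. The entry for Mir17, which opens the cluster (Entrez Gene 723905), had 2, 0 and 0 reads in mutant replicates 1, 2 and 3 against 31, 26 and 16 reads in control replicates 1, 2 and 3 (limma adjusted p 8.54e-05). Mir17hg, the host transcript entry, was at 259, 183 and 194 RPKM (reads normalized for gene length and for depth) in mutants and at 45.4, 33.6 and 52.9 RPKM in controls (limma adjusted p 4.93e-05). Library depth, worked out from the RPKM values, lay between 27602025 and 36134381 reads. The sorted cells carried progenitor markers: the 8 nephron progenitor markers, among them Six2, Cited1 and Eya1, summed to 494 to 573 RPKM in mutants and 696 to 731 RPKM in controls. Endothelial markers summed to 5.61 to 6.23 RPKM in mutants and 3.94 to 6.35 RPKM in controls. Across all 13463 tested genes 422 differed between genotypes in limma at an adjusted p of 0.05, 178 higher and 244 lower in mutants; with median-of-ratios scaling the split was 282 higher and 156 lower. The labels do not say that the pools came from separate litters, so p-values measure the spread between these pools.

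The microRNAs of the cluster are shown because their seeds, bases 2 to 8 in capitals, are the part that pairs with messenger RNAs, and 4 seed families result. Sequences are those of RefSeq (GRCm38.p6, the build also called mm10; chromosome 14, plus strand).
mmu-miR-17-5p: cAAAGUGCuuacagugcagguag
mmu-miR-20a-5p: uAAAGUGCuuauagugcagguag
mmu-miR-18a-5p: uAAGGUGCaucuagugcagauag
mmu-miR-19a-3p: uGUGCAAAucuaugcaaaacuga
mmu-miR-19b-3p: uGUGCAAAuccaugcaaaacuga
mmu-miR-92a-3p: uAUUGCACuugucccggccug
Matches were sought in the 3′ UTR of greatest annotated length per gene (GENCODE M21), and 21 of the 41 genes (51.2%) held an 8mer or 7mer for at least 1 of these families. Among the 33 genes of the set that were tested between genotypes the share was 45.5% (15 genes). Among all 11714 tested genes with a 3′ UTR it was 47.5%. An 8mer is a match to bases 2 to 8 followed by an A, and a 7mer has 1 base fewer. For 8mers the counts were 10 of 41 genes (24.4%), 7 of the 33 tested ones (21.2%) and 14.3% of all tested genes. A match is a description of sequence and does not show that a site is used.

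The 10 genes with an 8mer were Col4a3, Col4a4, Fras1, Itga1, Itga4, Itga5, Itga8, Itgav, Itgb8 and Lama3. Only some of these sites are shown, with the matched 8 bases in capitals and their mm10 position. Left out are a second Itgav 8mer (miR-92a, chr2:83806415-83806422), 2 Fras1 8mers of miR-19, and those of Itga4 and Lama3 (miR-17 and miR-20a). All genes shown except Itga5 lay higher in every mutant library than in any control. For Itga5, Fras1, Itga4 and Lama3 the groups overlapped.
Itgb8 (miR-17 and miR-20a; chr12:119162898-119162905, minus strand): ctagtgttgtaGCACTTTAttgtaatatat
Itgb8 (miR-19; chr12:119158595-119158602, minus strand): ataagtaccaaTTTGCACAttataatatag
Col4a3 (miR-17 and miR-20a; chr1:82719692-82719699, plus strand): ttactaaatgtGCACTTTAtccccactcct
Col4a4 (miR-17 and miR-20a; chr1:82452601-82452608, minus strand): ttttaagccagGCACTTTAaataattgtga
Col4a4 (miR-17 and miR-20a; chr1:82451549-82451556, minus strand): cacttttcagtGCACTTTAgaataattgaa
Itga1 (miR-19; chr13:114958207-114958214, minus strand): aggcattgaacTTTGCACAtggagctataa
Itga8 (miR-92a; chr2:12107706-12107713, minus strand): caaaatgttatGTGCAATAttttatagacc
Itgav (miR-19; chr2:83803748-83803755, plus strand): ccatcagtaagTTTGCACAggcacttagaa
Itga5 (miR-92a; chr15:103344315-103344322, minus strand): ctctgttgcaaGTGCAATAaaccccaccca
Itgb8 held the most matches, 2 8mers and 5 7mers over a 3′ UTR of 5095 bases. Of these 7 matches 2, the first 8mer among them, lie inside the shorter Itgb8 gene that RefSeq annotates.

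**Figure D1:**
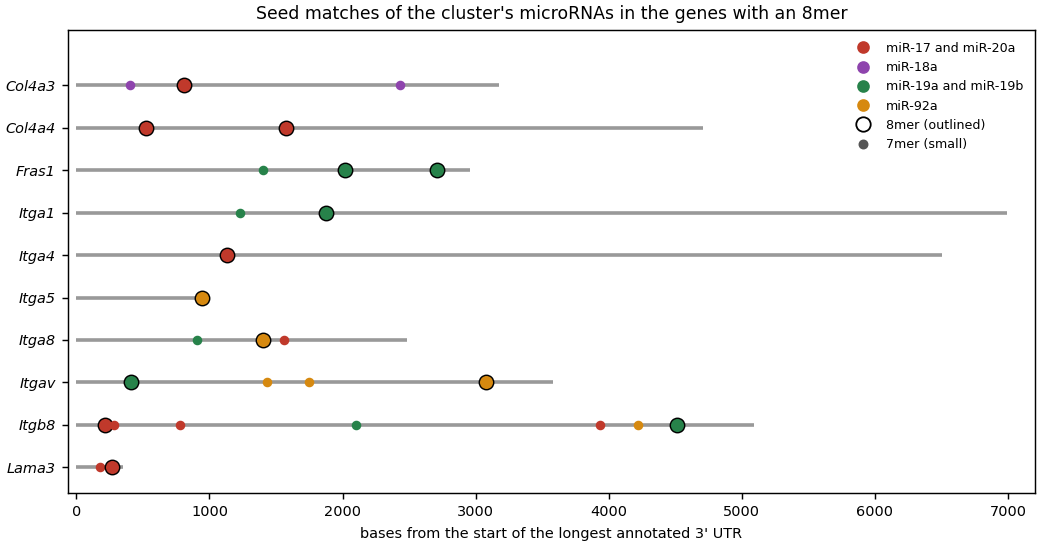
Positions of seed matches along the longest annotated 3′ UTR (grey lines, bases from its start) of the 10 genes with an 8mer; large outlined points are 8mers, small points 7mers, and colours are the seed families. Itgb8 carries 7 matches and Col4a4 carries 2 8mers of the miR-17 family.

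Collagen IV, several laminin chains, Itga8, Itga1, Itgav and Itgb8 lay higher in every mutant library than in any control. Only Itga11 did the reverse among the tested genes of the set. The largest fitted difference was 1.73-fold, for Itga1, and the added 0.5 RPKM of the fit lowers it. Ratios of read rates were 2.2 for Itga1, 2.18 for Itgb8 and 3.23 for Col4a3, which was too low to be fitted. Genotypes were compared with limma on log2(RPKM + 0.5), and entries whose mean fell under 0.5 RPKM were not tested. That left 33 of the 41 genes, with 8 below the level. None of the 33 passed in limma at an adjusted p of 0.05 (0 higher and 0 lower), where 3.13% of all tested genes passed. At an unadjusted p of 0.05, 10 of the 33 were higher in mutants and 0 lower, against 5.94% of all tested genes higher and 13.7% lower. With voom on whole reads worked out from the table, 6 of 33 passed, all higher in mutants (Col4a1, Col4a2, Itga1, Itgb8, Lama2 and Nid1), where 5.10% of all tested genes passed. Col4a1 and Col4a2 passed with median-of-ratios scaling, with quantile normalization and with depths that do not count mitochondrial ribosomal RNA, where 3.25%, 3.17% and 3.11% of all tested genes passed. Itgb8 alone passed without the mean-variance trend (2.41% of all tested genes). Without control replicate 2 Nid1 and Col4a1 passed (3.69% of all tested genes), and without control replicate 3 Itga8 passed (8.04%). None passed without mutant replicate 1, 2 or 3 or control replicate 1, where 1.50%, 1.10%, 1.82% and 1.56% of all tested genes did, nor with the replicate number as a block (2.92%).

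All 3 mutant libraries lay above all 3 control libraries for 15 of the 33 tested genes and below them for 1, Itga11. Among all tested genes these shares were 7.06% and 18.0%. The median log2 fold change of the 33 was 0.23, and that of all tested genes was -0.125; 28 of the 33 lay above -0.125. Median-of-ratios scaling moved the all-gene median to -0.012. The deposited values carry unequal shares of mitochondrial ribosomal RNA, between 32.23% and 38.24% of reads in mutants and between 26.96% and 30.35% in controls. With depths that do not count this RNA, 21 of 33 genes lay above without overlap and 0 below, against 12.3% and 10.5% of all tested genes; with median-of-ratios scaling they were again 21 and 0, against 12.2% and 11.1%. Without control replicate 3, in which the sum of interstitium markers was lowest, the counts were 15 above and 2 below, against 10.8% and 33.7% of all tested genes. Leaving out a library cannot lower such counts, so the 15 does not show whether the pattern depends on that library.

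**Figure D2:**
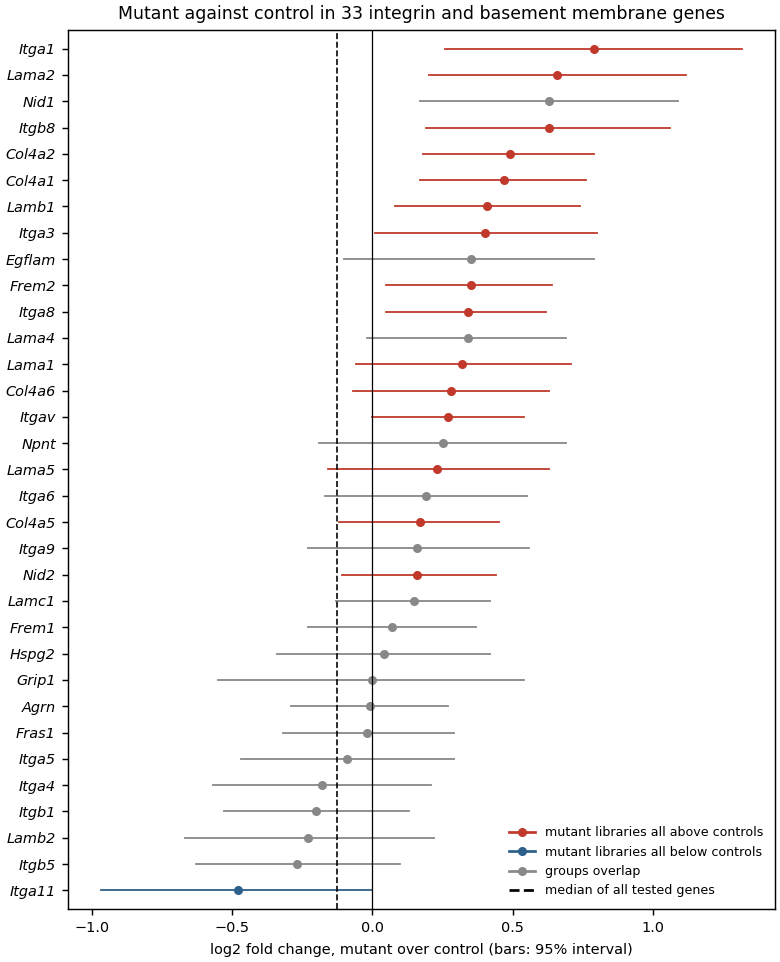
Log2 fold change of mutant over control on the log2(RPKM + 0.5) scale for the 33 tested genes, with 95% intervals from limma; the dashed line is the median of all tested genes, -0.125. In 15 genes all mutant libraries lie above all controls (red), in Itga11 all lie below (blue), and in 17 the groups overlap (grey).

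Of the 7 laminin chains tested, 4 lay above the controls in every mutant library and the median log2 fold change was 0.32. Of all tested genes 7.06% lay above in this way, and their median was -0.125. Lamc1, the gamma1 chain of most laminins, had the highest level of them, 39.6, 33.8 and 38.6 RPKM in mutants and 33.3, 35.9 and 31.8 RPKM in controls. The groups overlapped. Lamb1, the beta1 chain, was at 23.8, 21.9 and 24.3 RPKM in mutants and 18.7, 20.3 and 14.0 RPKM in controls (log2 fold change 0.41, SE 0.15, limma adjusted p 0.18). Every mutant library was above every control for Lamb1, and control replicate 3 was lowest. Lamb2, the beta2 chain of the mature glomerular basement membrane, overlapped between groups at 2.06, 1.89 and 3.44 RPKM in mutants and 2.84, 3.10 and 2.71 RPKM in controls. Lamb1 made up 92.0%, 92.0% and 87.5% of the summed RPKM of the 3 beta chains in mutants and 86.8%, 86.7% and 83.6% in controls, a ratio that scaling of libraries does not alter. The mutant libraries held the larger Lamb1 share in each case.

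Among the laminin alpha chains Lama4, a chain of mesenchyme and vessels, stood highest in every library, at 10.7, 9.19 and 10.8 RPKM in mutants and 7.82, 9.80 and 6.62 RPKM in controls. It overlapped between groups (log2 fold change 0.34, SE 0.16, limma adjusted p 0.275). Lama1, the alpha1 chain of early epithelial basement membranes, was at 2.27, 2.17 and 2.85 RPKM in mutants and 1.73, 2.07 and 1.71 RPKM in controls. Lama5, the alpha5 chain that takes over as kidney epithelia mature, was at 1.38, 1.25 and 1.53 RPKM in mutants and 1.06, 1.21 and 1.03 RPKM in controls. In both genes the mutant libraries lay above the controls, by small margins, and neither passed (limma adjusted p 0.331 and 0.477). Lama2, the alpha2 chain known from muscle and nerve, was at 2.49, 3.03 and 3.21 RPKM in mutants and 1.97, 2.03 and 1.08 RPKM in controls (log2 fold change 0.66, 95% interval 0.20 to 1.12, limma adjusted p 0.127). Its groups did not overlap, and control replicate 3 stood apart as the lowest. Lama3 and Lamb3, chains of a laminin of stratified epithelia, stayed at or under 0.14 RPKM in every library.

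**Figure D3:**
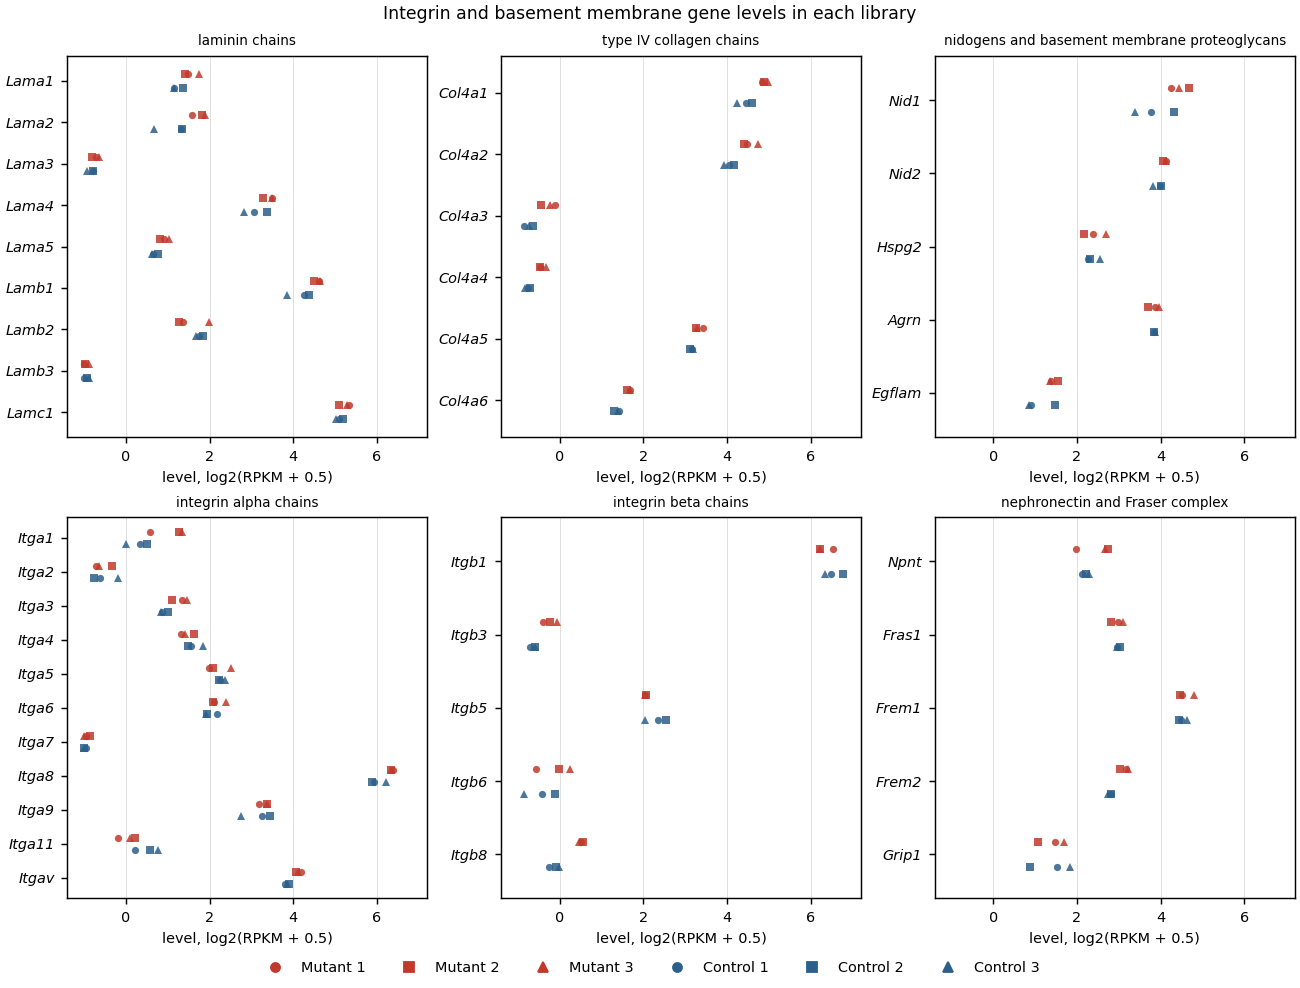
Level of each of the 41 genes on the log2(RPKM + 0.5) axis, by role; within each row mutant libraries (red) are drawn above control libraries (blue), and marker shapes are replicates 1 to 3. Itgb1 and Itga8 reach the highest levels, and Col4a1, Col4a2, Itgb8 and Itga8 show mutant points to the right of all control points.

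Type IV collagen chains are made from gene pairs that lie head to head, and in each of the 6 genes every mutant library lay above every control. For the 4 that were tested the share among all tested genes was 7.06%. For Col4a3 and Col4a4, below the level for testing, it was 7.53% of such entries with a value above 0. Col4a1 (chromosome 8, 11198423 to 11312889) and Col4a2 (11312805 to 11449287) encode the alpha1 and alpha2 chains of the network found in all basement membranes. Their annotated spans overlap by 85 bases on opposite strands. Whether counting used strand is not stated in the sources used here, and without it reads from that stretch cannot be assigned to one gene. Col4a1 was at 27.9, 29.0 and 31.0 RPKM in mutants and 21.5, 23.7 and 18.4 RPKM in controls (log2 fold change 0.47, SE 0.13, limma adjusted p 0.0949). Col4a2 was at 21.7, 20.6 and 26.4 RPKM in mutants and 16.1, 17.5 and 14.8 RPKM in controls (log2 fold change 0.49, SE 0.14, limma adjusted p 0.0938). In both genes each mutant library exceeded each control. Control replicate 3, which also had the lowest sum of interstitium markers, was the lowest control for both. Without it the log2 fold changes were 0.37 for Col4a1 and 0.43 for Col4a2; the part of interstitial cells was not tested. Both passed with median-of-ratios scaling (limma adjusted p 0.0226 for Col4a1 and 0.0168 for Col4a2), with quantile normalization (0.02 and 0.0222) and with depths that do not count mitochondrial ribosomal RNA (0.0263 and 0.0237).

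The windows around both starts are shown because both genes start in the same short stretch of DNA. Each window runs from 250 bases before an annotated start to 50 bases after it (RefSeq, GRCm38.p6), 5′ to 3′ on the gene's own strand. For Col4a1 the window uses a start at 11312826, whereas the span given above, and its overlap of 85 bases, reach 11312889. Capitals mark CCAAT and GGGCGG or their reverse complements ATTGG and CCGCCC.
Col4a1 (chr8:11312777-11313076, minus strand): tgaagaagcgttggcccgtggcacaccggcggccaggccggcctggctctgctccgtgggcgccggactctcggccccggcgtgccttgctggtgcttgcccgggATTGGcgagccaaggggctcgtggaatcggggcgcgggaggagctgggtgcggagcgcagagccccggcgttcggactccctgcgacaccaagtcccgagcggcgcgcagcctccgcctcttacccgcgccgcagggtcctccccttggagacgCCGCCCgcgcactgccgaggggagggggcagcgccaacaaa
Col4a2 (chr8:11312555-11312854, plus strand): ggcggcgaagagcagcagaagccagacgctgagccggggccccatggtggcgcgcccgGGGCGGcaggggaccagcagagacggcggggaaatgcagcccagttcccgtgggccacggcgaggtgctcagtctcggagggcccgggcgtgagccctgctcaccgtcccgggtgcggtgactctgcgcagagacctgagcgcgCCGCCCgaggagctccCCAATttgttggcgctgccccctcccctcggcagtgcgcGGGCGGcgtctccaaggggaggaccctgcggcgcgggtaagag
Of all 32851 promoter windows of this length 37.4% held CCAAT and 35.7% held GGGCGG on either strand, so both are common in such windows. A match does not show that a factor binds.

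Col4a5 and Col4a6, on the X chromosome and 1274 bases apart, encode the alpha5 and alpha6 chains. Col4a5 was at 10.2, 9.14 and 9.18 RPKM in mutants and 8.47, 8.12 and 8.60 RPKM in controls (limma adjusted p 0.482). Col4a6 was at 2.70, 2.53 and 2.71 RPKM in mutants and 2.17, 1.97 and 2.13 RPKM in controls (limma adjusted p 0.347). The mutant libraries lay above the controls in both, and neither passed.

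Col4a3 and Col4a4, the chains that with Col4a5 form the collagen network of the mature glomerular basement membrane and are lost in Alport syndrome, were the lowest of the 6 and lay below the level for testing. Col4a3 had 111, 55 and 82 reads in mutants and 14, 46 and 24 reads in controls, or 0.426, 0.230 and 0.345 RPKM in mutants against 0.0552, 0.148 and 0.0991 RPKM in controls. Mutant replicate 1 was highest and control replicate 1 lowest. The read rate in mutants was 3.23 times that in controls (exact 95% interval 2.51 to 4.19, counting error only). Col4a4 was at 0.224, 0.221 and 0.297 RPKM in mutants and 0.0912, 0.113 and 0.0638 RPKM in controls, a ratio of read rates of 2.69 (2.02 to 3.64). In each gene all mutant libraries lay above all controls, and the two-sided exact permutation p was 0.1, the smallest that 3 against 3 libraries can give. Together these chains made up 1.03%, 0.731% and 0.919% of the summed RPKM of the 6 collagen chains in mutants and 0.303%, 0.507% and 0.369% in controls. Their annotated spans overlap by 114 bases, where reads cannot be assigned to one gene unless counting used strand. Both 3′ UTRs hold a miR-17 family 8mer, printed above. Both genes are also podocyte genes: the 6 podocyte markers, of which 5 had the higher mean in mutants, summed to 11.7, 4.55 and 4.48 RPKM in mutants and 6.79, 6.65 and 7.18 RPKM in controls. The part of podocytes in Col4a3 and Col4a4 was not tested. In bulk RNA of this kind more cells of a type and more RNA per cell cannot be told apart.

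Of the 5 nidogen and proteoglycan genes only Nid2 had groups that did not overlap, where 7.06% of all tested genes lay above and 18.0% below. Nid1, nidogen 1, which bridges laminin and collagen IV, was at 18.4, 25.1 and 21.0 RPKM in mutants and 13.1, 19.3 and 9.88 RPKM in controls (log2 fold change 0.63, 95% interval 0.17 to 1.09, limma adjusted p 0.14). Control replicate 2 exceeded mutant replicate 1, so the groups overlapped; without control replicate 2 Nid1 passed (limma adjusted p 0.00672, and up to 0.448 over the alternatives run). Nid2 was at 17.0, 16.0 and 17.0 RPKM in mutants and 15.2, 15.7 and 13.7 RPKM in controls (limma adjusted p 0.476). Its mutant libraries lay just above the controls. Hspg2, perlecan, averaged 4.89 ± 1.01 RPKM in mutants and 4.71 ± 0.575 RPKM in controls (SD, n = 3 each). Agrn, agrin, was at 14.1, 12.5 and 15 RPKM in mutants and 13.9, 13.9 and 14.1 RPKM in controls. The 95% interval of the log2 fold change was -0.34 to 0.42 for Hspg2 and -0.29 to 0.27 for Agrn. Egflam, pikachurin, a dystroglycan ligand known from the retina, was at 2.12, 2.43 and 2.06 RPKM in mutants and 1.38, 2.30 and 1.30 RPKM in controls (limma adjusted p 0.361).

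Integrin alpha chains were dominated by Itga8 (chromosome 2, 12106632 to 12301985), the partner of beta1 in the nephronectin receptor. Itga8 made up 67.8%, 66.1% and 64.9% of the summed RPKM of the 11 alpha chains in mutants and 62.4%, 60.7% and 68.2% in controls. Its level was 82.2, 79.5 and 80.8 RPKM in mutants and 60.1, 58.7 and 73.8 RPKM in controls (log2 fold change 0.34, SE 0.13, limma adjusted p 0.194). Each mutant library exceeded each control, and the mutants lay within a narrow band. Without control replicate 3, the highest control, Itga8 passed (limma adjusted p 0.0408; 0.0408 to 0.491 over the alternatives run). Itgav, the alpha chain of receptors for RGD ligands such as fibronectin and latent TGF-beta, came next, at 17.7, 16.3 and 16.8 RPKM in mutants and 13.5, 14.5 and 13.9 RPKM in controls (log2 fold change 0.27, SE 0.12, limma adjusted p 0.259). Its groups did not overlap.

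Itga1, the alpha1 chain of a collagen receptor, was at 0.999, 1.92 and 2.04 RPKM in mutants and 0.771, 0.911 and 0.499 RPKM in controls (log2 fold change 0.79, 95% interval 0.26 to 1.32, limma adjusted p 0.115). It showed the largest log2 fold change of the 33 tested genes in limma, with mutant replicate 1 close to the controls and no overlap. Itga3, the alpha3 chain of a laminin receptor of podocytes and tubules, was at 2.04, 1.65 and 2.24 RPKM in mutants and 1.32, 1.5 and 1.28 RPKM in controls (limma adjusted p 0.247). Itga11, the alpha11 chain of a fibrillar collagen receptor, was the only one of the 33 with all mutant libraries below the controls, 0.375, 0.656 and 0.565 RPKM in mutants and 0.667, 0.998 and 1.19 RPKM in controls (log2 fold change -0.48, SE 0.22, limma adjusted p 0.259). Itga4, Itga5, Itga6 and Itga9 overlapped between groups. Itga5, the fibronectin receptor chain that is a reported target of miR-92a in endothelial cells, was at 3.44, 3.72 and 5.16 RPKM in mutants and 4.26, 4.13 and 4.66 RPKM in controls (95% interval of the log2 fold change -0.47 to 0.29). Itga2, a collagen receptor chain, and Itga7, a laminin receptor chain of muscle, were at most at 0.371 RPKM.

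Integrin beta chains were dominated by Itgb1, the common beta1 partner, which made up between 93.0% and 94.9% of their summed RPKM in mutants and between 94.4% and 94.9% in controls. Itgb1 had the highest level of the 41 genes, 92.7, 74.3 and 74.6 RPKM in mutants and 89.1, 108 and 80.8 RPKM in controls (log2 fold change -0.20, SE 0.15, limma adjusted p 0.462). With quantile normalization its log2 fold change was 0.01 (limma adjusted p 0.977). Itgb5, an alphav partner, was at 3.60, 3.70 and 3.61 RPKM in mutants and 4.63, 5.35 and 3.63 RPKM in controls (limma adjusted p 0.385). Mutants and controls overlapped for both genes.

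Itgb8 (chromosome 12, 119162803 to 119238276), the beta8 chain that pairs with alphav to activate latent TGF-beta, had 86, 84 and 75 reads in mutants and 31, 50 and 42 reads in controls. These are 0.918, 0.976 and 0.878 RPKM in mutants and 0.340, 0.447 and 0.482 RPKM in controls. Each mutant library was well above each control. The log2 fold change was 0.63 (95% interval 0.19 to 1.06, limma adjusted p 0.124) on the log2(RPKM + 0.5) scale, which understates changes of low genes; the ratio of read rates was 2.18 (exact 95% interval 1.75 to 2.73, counting error only). With voom on the reads the log2 fold change was 1.13 (adjusted p 0.0478), and without the mean-variance trend the limma adjusted p was 0.0483. Over all alternatives run the adjusted p lay between 0.0478 and 0.368.

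Itgb3, the beta3 partner of alphav, lay below the level for testing, at 0.263, 0.355 and 0.457 RPKM in mutants and 0.111, 0.163 and 0.16 RPKM in controls. The mutant libraries were above the controls, with a ratio of read rates of 2.44 (exact 95% interval 1.86 to 3.22, counting error only) and a two-sided exact permutation p of 0.1, the smallest possible. Itgb6, an epithelial alphav partner, varied widely, 0.181, 0.493 and 0.695 RPKM in mutants and 0.246, 0.433 and 0.0557 RPKM in controls. The 9 markers of the ureteric bud and collecting duct, of which Wnt9b, Krt8 and Aqp2 were at 0 in at least 1 library, summed to 1.85, 7.26 and 6.43 RPKM in mutants and 3.67, 4.52 and 1.22 RPKM in controls; their part in Itgb6 was not tested. Of the 8 genes below the level for testing Col4a3, Col4a4 and Itgb3 had groups that did not overlap, each higher in mutants, where 7.53% of all 9766 such entries with a value above 0 did so. Lama3, Lamb3, Itga2, Itga7 and Itgb6 overlapped.

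Of the 5 genes of nephronectin and the Fraser complex only Frem2 had groups that did not overlap, where 7.06% of all tested genes lay above and 18.0% below. Frem2 was at 8.48, 7.59 and 8.75 RPKM in mutants and 6.48, 6.55 and 6.15 RPKM in controls (log2 fold change 0.35, SE 0.14, limma adjusted p 0.201), and every mutant library exceeded every control. Frem1, the highest of the 5, was at 22.2, 21.4 and 27.3 RPKM in mutants and 21.8, 21.1 and 24.2 RPKM in controls (log2 fold change 0.07, SE 0.14, limma adjusted p 0.785). Fras1, which holds 2 8mers of miR-19, was at 7.45, 6.55 and 8.10 RPKM in mutants and 7.29, 7.70 and 7.30 RPKM in controls, with a 95% interval of the log2 fold change of -0.32 to 0.29. Grip1, the adaptor that brings Fraser proteins to the cell surface, was at 2.27, 1.58 and 2.71 RPKM in mutants and 2.35, 1.35 and 3.05 RPKM in controls. Npnt, nephronectin, was at 3.42, 6.19 and 5.86 RPKM in mutants and 3.87, 4.13 and 4.38 RPKM in controls (limma adjusted p 0.491), with mutant replicate 1 below all controls.

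Set beside the seed matches, the mutant libraries lay above all controls in 6 of the 10 genes with an 8mer (Col4a3, Col4a4, Itga1, Itga8, Itgav and Itgb8) and in 12 of the 31 genes without one. Among tested genes of the set alone the counts were 4 of 7 (57.1%) and 11 of 26 (42.3%). Fras1, Itga4, Itga5 and Lama3 had an 8mer and overlapped. Of all tested genes with a 3′ UTR, 10.5% of the 1670 with an 8mer and 6.61% of the 10044 without one lay above in this way, and their median log2 fold changes were -0.06 and -0.14. Col4a1, Col4a5, Col4a6, Lama2 and Nid1 held no match of any of the 4 families.

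Markers of interstitial cells were measured beside these genes. The 10 interstitium markers, among them Col1a1, Col3a1 and Pdgfra, summed to 124, 202 and 177 RPKM in mutants and 111, 163 and 66.0 RPKM in controls, and 9 of the 10 had the higher mean in mutants. None of the 10 was at 0 in any library. The markers did not all run alike: Foxd1 was at 8.84, 9.42 and 12.4 RPKM in controls, highest in replicate 3. Meis1 was at 4.87, 6.38 and 5.54 RPKM in controls, lowest in replicate 1, and the other markers were lowest in replicate 3. From high to low the sum ran through replicates 2, 3 and 1 in mutants and replicates 2, 1 and 3 in controls. Nid1 followed this order of libraries within each genotype. Itgb5 did so too, where 2.15% of all tested genes have this order in both genotypes. The control order alone was found in 18 of the 33 tested genes, where 34.3% of all tested genes have it. The 18 were Col4a1, Col4a2, Lama1, Lama2, Lama4, Lama5, Lamb1, Lamb2, Lamc1, Nid1, Nid2, Egflam, Frem2, Itga1, Itga3, Itga9, Itgb1 and Itgb5. Of these, Itgb1, Itgb5 and Lamb2 had negative log2 fold changes (-0.2, -0.27 and -0.23). Col4a1, Itga1, Itga9, Itgb5, Lama2 and Nid1 had both their lowest control value in replicate 3 and their lowest mutant value in replicate 1, where 11.1% of all tested genes do. The part of interstitial cells in these genes was not tested. Itga8 ran the other way among controls, highest in replicate 3. Itga11, Itgb8, Col4a5, Hspg2, Agrn, Itga4, Itga5, Npnt, Frem1 and Grip1 were also highest there among controls. Macrophage and leukocyte markers summed to 13.2 to 15.3 RPKM in mutants and 5.18 to 8.12 RPKM in controls, and nephron tubule markers to 6.61 to 19.5 RPKM in mutants and 3.79 to 4.70 RPKM in controls. Renal vesicle markers summed to 114 to 143 RPKM in mutants and 106 to 124 RPKM in controls. All 8 of them had the higher mean in mutants, as did all 10 macrophage and leukocyte and all 7 nephron tubule markers. In 4 of the 7 tested vesicle markers all mutant libraries lay above all controls, where 7.06% of all tested genes did. Of the 7, 1 passed (Cdh6, higher, limma adjusted p 0.0146), where 3.13% of all tested genes passed. The part of these cells, and of the lower progenitor marker sum in mutants, in the values above was not tested.

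**Figure D4:**
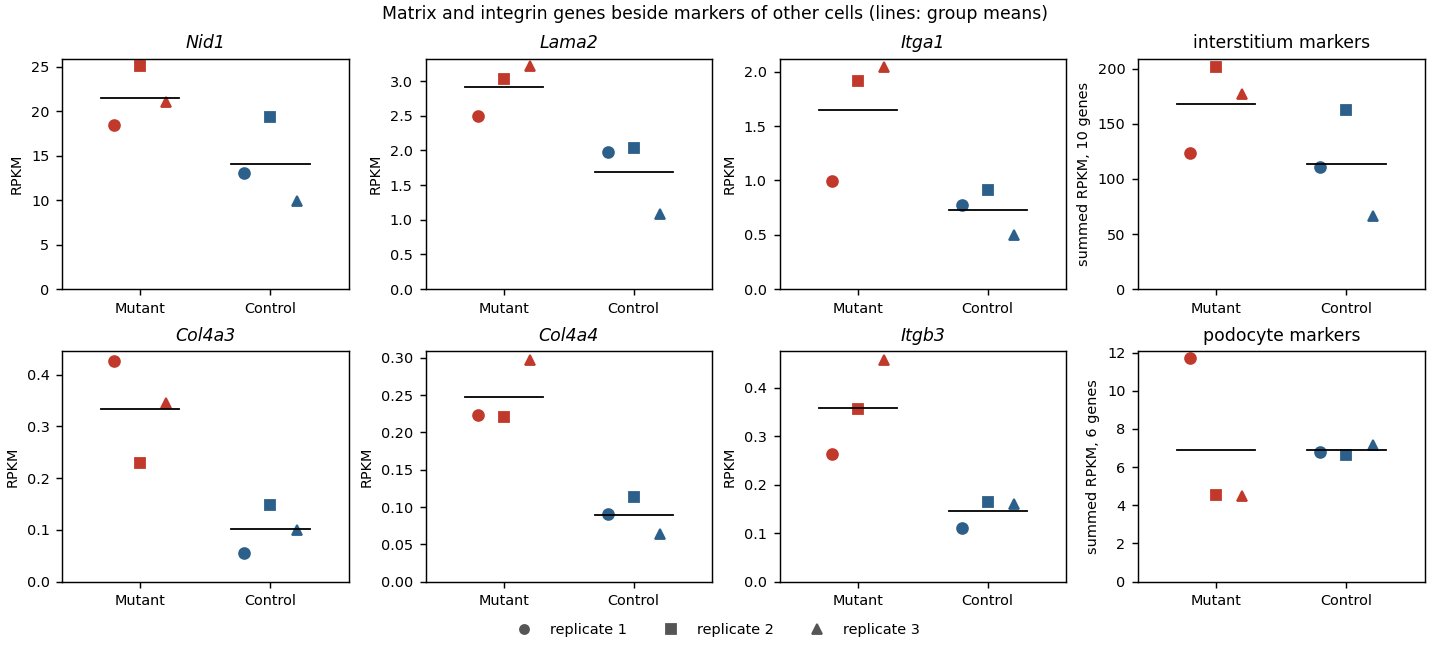
RPKM of Nid1, Lama2, Itga1, Col4a3, Col4a4 and Itgb3, and summed RPKM of interstitium and podocyte markers, in mutant (left) and control (right) libraries; shapes are replicates and lines are means. The sum of interstitium markers is lowest in control replicate 3, and that of podocyte markers is highest in mutant replicate 1.

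Other genes of the adhesion system were counted from lists of names. None of 11 other integrin chains, such as the leukocyte chain Itgb2 and the hemidesmosome chain Itgb4, reached the level for testing. Of 24 other matrix and laminin receptor genes 18 were tested, and 1 rose, where 3.13% of all tested genes passed. This was Bcam, a receptor for laminin alpha5. Bcam was at 9.31, 6.70 and 9.68 RPKM in mutants and 3.07, 4.04 and 3.03 RPKM in controls (log2 fold change 1.22, SE 0.18, limma adjusted p 0.00337, and at most 0.0452 over the alternatives run). Col18a1, a collagen of basement membranes and the source of endostatin, was at 5.53, 5.18 and 6.91 RPKM in mutants and 3.65, 3.85 and 2.96 RPKM in controls (limma adjusted p 0.0524). Fn1, fibronectin, was at 26.9, 31.6 and 33.0 RPKM in mutants and 18.8, 26.2 and 13.8 RPKM in controls (limma adjusted p 0.102). Over the alternatives run the limma adjusted p lay between 0.0114 and 0.144 for Col18a1 and between 0.00401 and 0.338 for Fn1. The mutant libraries lay above the controls in 6 of these 18 genes and below in 1, where 7.06% and 18.0% of all tested genes did so, and the median log2 fold change was 0.27. With voom 4 of the 18 passed, all higher, where 5.10% of all tested genes passed. With median-of-ratios scaling 3 passed, all higher, where 3.25% did. At an unadjusted p of 0.05, 6 were higher and 1 lower, where 5.94% and 13.7% of all tested genes were.

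The cytoplasmic linkers that tie integrins to actin had a median log2 fold change close to that of all tested genes, -0.14 against -0.125. Of 17 tested linker genes 0 passed in limma, where 3.13% of all tested genes passed, and 1 passed with voom (Src, lower), where 5.10% did. At an unadjusted p of 0.05, 0 were higher and 4 lower, where 5.94% and 13.7% of all tested genes were. In 6 of the 17 all mutant libraries lay below all controls and in 0 above, where 18.0% of all tested genes lay below and 7.06% above. With median-of-ratios scaling 0 passed. Src, the kinase of focal adhesions, was at 1.10, 0.907 and 1.14 RPKM in mutants and 1.92, 2.04 and 1.83 RPKM in controls (log2 fold change -0.65, SE 0.18, limma adjusted p 0.0792). Kank2, which binds talin, was at 14.8, 16.0 and 15.4 RPKM in mutants and 19.6, 19.2 and 22.7 RPKM in controls (limma adjusted p 0.126). Tln1, talin 1, which activates integrins, was at 5.91, 5.37 and 7.67 RPKM in mutants and 8.43, 10.2 and 8.06 RPKM in controls (limma adjusted p 0.157).

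Of 20 tested genes for collagen folding, crosslinking and matrix remodelling 0 passed in limma, where 3.13% of all tested genes passed, and 1 passed with voom (Timp3, higher), where 5.10% did. At an unadjusted p of 0.05, 1 was higher and 1 lower, where 5.94% and 13.7% of all tested genes were. Timp3, a matrix-bound protease inhibitor, was at 13.6, 14.8 and 17.4 RPKM in mutants and 9.64, 13.0 and 6.21 RPKM in controls (limma adjusted p 0.123). Adam10, a sheddase, was at 41.8, 32.0 and 35.9 RPKM in mutants and 49.9, 46.2 and 46.3 RPKM in controls (limma adjusted p 0.157). Plod3, a collagen lysyl hydroxylase, was at 4.62, 3.43 and 4.55 RPKM in mutants and 5.72, 5.27 and 5.12 RPKM in controls (limma adjusted p 0.279). The groups did not overlap for any of these 3 genes, which were picked for their low p. Of the 20, all mutant libraries lay above all controls in 3 and below in 3, and 14 overlapped. Among all tested genes 7.06% lay above and 18.0% below. The median log2 fold change of the 20 was 0.04.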

How the data were processed

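RNA of sorted progenitors was sequenced as paired reads of 100 bases, per the labels' protocols, from cDNA made with an Ovation kit. The authors deposited 1 table of RPKM values, normalized for gene length and depth; the build was mm10, per the submitters' processing notes, and column names carry the word subread, per the file headers. Counting tool, annotation and strand setting: not given in the sources used here. Symbols came from RefSeq for 25275 of 27179 entries. Values of low genes are whole multiples of 1 read, so depth, counted length and reads were worked out (whole within 0.01 of a read); they were recovered for all 13463 tested genes, and sum to between 99.71% and 99.76% of the depth. Whether a unit is a read or a pair is not known, and intervals cover counting error only. At these depths 1 read on 1 kb is worth 0.0277 to 0.0362 RPKM.

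Genotypes were compared with limma 3.58.1 (R 4.3.3) on log2(RPKM + 0.5), with entries under a mean of 0.5 RPKM left out, a mean-variance trend, two-sided, with Benjamini-Hochberg adjustment at 0.05 over all tested genes; the fit was tested on simulated data. Genes below that level got exact permutation tests (SciPy 1.17.1). The members and lists were chosen with earlier results of these data known, so no list was tested as a set. Named genes were the 22 of lowest p, the highest of each role and up to 3 of lowest p in each other list; the remaining members were named after their values were seen, to account for each. Alternatives were the pseudocount, filter, scaling, variance model, array weights, replicate block, leaving out each library and voom; depth without mitochondrial ribosomal RNA was added after the data were seen. Seed matches were counted with Python 3.11.15.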

Additional observations from a re-analysis of the deposited data

How the results depend on the processing

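All 24 named integrin and basement membrane genes kept their direction under the alternatives run except Itgb1 with quantile normalization (0.01) and Frem1 without mutant replicate 3 (-0.04, range without single libraries -0.04 to 0.14), neither of which passed. The number of them that passed is given here with the share of all tested genes that passed in brackets. It was 0 in the analysis as reported (3.13%). It was 2 with median-of-ratios scaling (3.25%), quantile normalization (3.17%) or depth without mitochondrial ribosomal RNA (3.11%). It was 1 without the mean-variance trend (2.41%), 6 with voom (5.10%) and 0 to 2 without single libraries (1.10% to 8.04%). Those that passed without a single library were Nid1 and Col4a1 without control replicate 2 and Itga8 without control replicate 3. The number of all genes that passed was 422, against 143 with no filter, 686 with voom and 148 to 1083 without single libraries. Limma without control replicate 3 gave the 1083. The number of genes lying above all controls was 15 of 33, where 7.06% of all tested genes did so. It was 21 with median-of-ratios scaling or depth without mitochondrial ribosomal RNA, where the share of all tested genes also rose, to 12.2% and 12.3%. Counting 8mers alone, 10 genes in place of 21 held a match. Mir17 and Mir17hg passed under each alternative run. The causes were not tested.

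Mutant and control replicates of the same number deviated together with correlations of 0.05, 0.16 and 0.15, each above those with other numbers, a hint from the data and not from the design. With the replicate number as a block 393 genes and 0 of the 33 passed. Low read numbers limit Col4a3, Col4a4, Itgb3 and Itgb8.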
